A study of Mus musculus with 12 samples.

Results

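The 10 genes described here carry antigen presentation by the major histocompatibility complex (MHC). The 7 class I genes were H2-K1, H2-D1, B2m, Tap1, Tap2, Psmb8 and Psmb9, and the 3 class II genes were H2-Aa, H2-Ab1 and Cd74. They were taken by symbol from the gene tables of both cell types, which list 50434 gene names in all, and all 10 were found in each table. The members were not chosen by a measured value of any table, but the choice was made with earlier results of these data known.

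Class I molecules stand on nearly all nucleated cells and show peptides cut from the cell's own proteins to CD8+ T cells. Class II molecules belong mainly to dendritic cells, macrophages and B cells, where they show peptides of ingested protein to CD4+ T cells. Interferon-gamma raises both sets, and injured tubular epithelium can express class II as well.

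RNA was sequenced from 2 cell types of male C57BL/6J mice, 8 to 12 weeks old, after renal ischemia/reperfusion injury (IRI), in which both renal pedicles were clamped for 35 minutes. Glutamine, given intravenously as the dipeptide alanyl-glutamine, was compared with vehicle, which was physiologic saline. All groups had undergone IRI, and cells were taken 24 hours later, so no library here shows the uninjured state. The tubular epithelial cells (TECs) were sorted from kidney as CD45-Prominin-1+ cells, and for this experiment the injection was placed 15 minutes after reperfusion. The second cell type, labelled as neutrophils (PMN) of murine peripheral whole blood, came with no account of its sort. Each of the 4 groups held 3 libraries, named in TECs vehicle 3, 4 and 5 and glutamine 1, 2 and 3, and in PMN numbered 1 to 3 in each group. The labels do not state that the PMN libraries came from separate animals, so their p-values measure the spread between libraries, which may be technical.

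The TEC libraries held 5397370 to 10223461 counts, with glutamine 2 the shallowest, and the PMN libraries 20225246 to 21878446 counts. Levels are given as counts-per-million (CPM) after scaling by edgeR's TMM method, which sets a library's total by the bulk of its genes. Gene models with predicted or Rik names, together with sensory receptors, took 17.4% to 23.3% of the TEC counts with vehicle and 26.3% to 30.8% with glutamine, without overlap. A fit without these genes called 0 members and 0 of all 11883 genes it tested. The fit with them also called 0 members, and 0 of 14734 genes. The sort marker Prom1 stood at 64.6 to 83.5 CPM in TECs. Ptprc, which encodes CD45, was at most 1.52 CPM with vehicle and stood at 1.81 to 2.74 CPM with glutamine, also without overlap. Of 16 macrophage and dendritic cell markers, Itgax and Cd209a had no count in any TEC library, Adgre1 reached at most 0.592 CPM, and the summed level of the list was 57.1 to 83.6 CPM with vehicle and 66.9 to 136 CPM with glutamine. The 6 endothelial markers were also present in the TEC libraries, at 305 to 420 CPM in sum with vehicle and 269 to 396 CPM with glutamine. In PMN the neutrophil genes S100a8 and S100a9 reached 6607 to 28925 CPM and 6807 to 23755 CPM. The 10 neutrophil markers summed to 30146 to 52192 CPM with vehicle and 22035 to 71313 CPM with glutamine. These libraries also held macrophage genes, however, with the 16 markers at 5911 to 10912 CPM in sum with vehicle and 6313 to 12469 CPM with glutamine, and C1qb at 585 to 3394 CPM. The label was kept, and the makeup of these libraries by cell type is not known. Ptprc in PMN stood at 317 to 569 CPM with vehicle and 754 to 1150 CPM with glutamine, without overlap. Vehicle 2 stood apart among the PMN libraries, with endothelial markers at 1820 CPM in sum against 2.66 to 90.9 CPM in the other 5. The fit without it called 0 members and 0 of all 11294 genes it tested. In bulk libraries like these, fewer cells of a type and less RNA per cell cannot be told apart.

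Most of the members lie together in the MHC of chromosome 17, given here on GRCm38 from GENCODE M21. H2-K1, a class I heavy chain, lies at chr17:33996017-34000347 on the minus strand, and H2-D1, the other classical heavy chain of this strain, at chr17:35262730-35267499 on the plus strand. Between them lie Psmb9 at chr17:34181987-34187764, Tap1 at chr17:34187553-34197225, Psmb8 at chr17:34197721-34201454, Tap2 at chr17:34203527-34216321, H2-Ab1 at chr17:34257689-34269419 and H2-Aa at chr17:34282744-34287823. B2m lies apart at chr2:122147686-122153083, and Cd74 on another chromosome. Psmb9 and Tap1 run head to head from opposite strands and share 212 bases at their starts, and the gene Patl2 overlaps B2m from the other strand over 5398 bases. The sources used here do not state that counting used strand, so reads in shared stretches cannot be assigned with certainty. Patl2 had at most 2 counts in a TEC library and at most 421 in a PMN library. H2-K1, H2-D1 and the H2-Q and H2-T genes are near copies of each other, and a read of 50 bases can fit several of them, so the split of counts among these heavy chains is uncertain.

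RefSeq promoter windows (GRCm38.p6, 250 bases before to 50 after a start) were given for 7 of the 10 members and are shown because both classes share one promoter design. MHC promoters share an X box, bound by the RFX complex, and a Y box, bound by NF-Y, on which the activators Nlrc5 for class I and Ciita for class II assemble. Tap2, H2-Ab1 and Cd74 had no entry. The Y box core ATTGG was searched on both strands, and CCAAT is the same core on the other strand. It was present in 6 of the 7 members with an entry, and in 37.4% of all 32851 windows of this length. The interferon-stimulated response element, searched as GAAA and GAAA with 2 bases between them, was present in B2m alone of the 7, and in 3.44% of all windows. The gamma-activated sequence TTCNNNGAA was present in Psmb8 alone, and in 8.30% of all windows. The X box core ACNGATG was present in H2-D1, H2-Aa and Psmb8, and in 9.85% of all windows. With the letters AGNN before the core, as found in 0.968% of all windows, the longer X box had no match in the 7. The 4 stretches shown, each 5′ to 3′ along the gene's strand with matches in capitals, are those of the 3 abundant class I genes and the one class II member with an entry. A match describes letters in a window and is not evidence of binding.
H2-K1, chr17:34000333-34000427, minus strand: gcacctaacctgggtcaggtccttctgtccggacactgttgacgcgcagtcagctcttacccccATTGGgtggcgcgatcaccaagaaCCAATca
H2-D1, chr17:35262974-35263073, plus strand: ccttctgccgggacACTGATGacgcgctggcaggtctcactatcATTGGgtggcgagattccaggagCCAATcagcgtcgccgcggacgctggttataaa
B2m, chr2:122147537-122147656, plus strand: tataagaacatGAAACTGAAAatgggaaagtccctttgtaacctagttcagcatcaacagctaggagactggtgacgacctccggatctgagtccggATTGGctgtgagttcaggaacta
H2-Aa, chr17:34287824-34287923, minus strand: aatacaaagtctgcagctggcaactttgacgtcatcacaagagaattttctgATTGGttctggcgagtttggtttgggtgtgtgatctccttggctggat
In H2-K1 and H2-D1 the core occurred on both strands, with 19 and 18 bases between the matches. In the H2-K1 entry shown, the matches began 16 bases before the start and at base 9 after it. In the other H2-K1 entry they began 30 and 6 bases before the start, and in H2-D1 76 and 53 bases before it. H2-D1 carried the X box core 106 bases before its start. The capitals near the beginning of the B2m stretch are the interferon-stimulated response element, 139 bases before the start.

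In TECs the members fell into an abundant and a scarce set, seen when levels are divided by the length of the longest coding transcript. B2m, the light chain that every class I heavy chain needs, led with 325 ± 56.7 CPM per kilobase (SD over 6 libraries), followed by H2-K1 with 174 ± 31.4 and H2-D1 with 91.1 ± 7.62 CPM per kilobase. This order held in each of the 6 libraries. H2-Ab1 came next with 16.1 ± 7.32 CPM per kilobase and H2-Aa with 14.9 ± 9.79, and these neighbours did not differ beyond their spread. Psmb8 stood at 5.52 ± 1.46, Cd74 at 4.47 ± 2.14, Tap1 at 3.28 ± 1.69 and Tap2 at 1.41 ± 0.601 CPM per kilobase, each also within the summed SDs of its neighbour. Psmb9 was last with 0.588 ± 0.513 CPM per kilobase. Every library thus held more of the class I surface chains, per kilobase, than of the transporter chains and the induced proteasome subunits among the members.

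The comparison of glutamine with vehicle asked whether treatment after injury altered the expression of these genes in each cell type. In TECs 9 of the 10 members passed the expression filter and were tested among 14734 genes, while Psmb9 did not pass. By the quasi-likelihood test of edgeR, 0 of the 9 had a Benjamini-Hochberg adjusted p under 0.05, the same share as among all tested genes (0%), where the smallest adjusted p was 0.101. No member had an unadjusted p below 0.05 in edgeR, against 12.7% of all tested genes. DESeq2 called 0 members at an adjusted p below 0.05, against 1.91% of the 12826 genes to which it gave one, and found 1 member, H2-Aa, with an unadjusted p below 0.05. The groups overlapped in all 9 tested members, while 18.8% of all tested genes showed no overlap. The log2 fold change was above 0 in 6 of the 9, against 50.6% of all tested genes, and its median was 0.41, against 0.01 over all genes. By class the median was 0.09 over the 6 tested class I genes and 0.72 over the 3 class II genes.

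Of the heavy chains, H2-K1 stood at 213, 228 and 346 CPM in vehicle 3, 4 and 5 and at 305, 292 and 304 CPM in glutamine 1, 2 and 3. The glutamine libraries lay close together, and vehicle 5 was above all of them. Group means were 262 ± 73.1 for vehicle and 300.2 ± 7.26 CPM for glutamine (SD, n = 3). The log2 fold change was 0.19 ± 0.22 (SE, edgeR adjusted p = 0.738). H2-D1 stood at 194, 185 and 214 CPM with vehicle and at 169, 182 and 205 CPM with glutamine. These values overlapped, with a log2 fold change of -0.09 ± 0.19 (SE, edgeR adjusted p = 0.867). Divided by the library total in place of TMM, the same counts gave 212, 202 and 211 CPM with vehicle and 162, 168 and 192 CPM with glutamine, which did not overlap. Leaving predicted, Rik and sensory receptor genes out of the totals brought the overlap back, so that the separation of H2-D1 rested on how the libraries were scaled. B2m was 246, 256 and 341 CPM with vehicle and 212, 301 and 318 CPM with glutamine. The groups overlapped, with glutamine 1 the lowest library and vehicle 5 the highest, and a log2 fold change of -0.02 ± 0.22 (SE, edgeR adjusted p = 0.980), and the sign turned without vehicle 5, where it was 0.14. The 95% intervals of these log2 fold changes ran from -0.29 to 0.68 for H2-K1, from -0.50 to 0.32 for H2-D1 and from -0.52 to 0.47 for B2m, so that a change of 2-fold lay outside all 3.

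Tap1 and Tap2 encode the paired chains of the transporter that carries peptides into the endoplasmic reticulum. Tap1 stood at 8.78, 9.32 and 3.46 CPM with vehicle and at 6.37, 12.3 and 17.9 CPM with glutamine. Glutamine 2 and 3 were above every vehicle library, but glutamine 1 was not, and the log2 fold change was 0.76 ± 0.48 (SE, edgeR adjusted p = 0.528). It was 0.36 without glutamine 3, 0.42 without vehicle 5 and 1.07 without glutamine 1. Tap2 stood at 8.29, 3.40 and 4.08 CPM with vehicle and 2.40, 5.62 and 5.37 CPM with glutamine. Its log2 fold change was -0.24 ± 0.54 (SE, edgeR adjusted p = 0.884), and without vehicle 3 the sign turned to 0.24. Of the 6 genes that load class I molecules, 3 were higher and 3 lower on the log2 scale, and 0 passed the adjusted threshold. The groups did not overlap in 2 of the 6, against 18.8% of all tested genes. The abundant chaperones of that list were Calr, at 294 to 579 CPM with vehicle and 428 to 804 CPM with glutamine, and Canx, at 277 to 335 and 313 to 379 CPM. Tapbp, the tapasin that holds class I molecules to the transporter, was 84.7, 78.7 and 99.7 CPM with vehicle and 111, 119 and 104 CPM with glutamine (log2 fold change 0.34, edgeR adjusted p = 0.489). Its groups overlapped under library totals, but not under TMM or under totals without predicted, Rik and sensory receptor genes. Erap1, which trims peptides to their final length, was 18.2, 17.9 and 18.6 CPM with vehicle and 9.13, 14.7 and 14.1 CPM with glutamine, without overlap in the other direction (log2 fold change -0.53, edgeR adjusted p = 0.464).

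**Figure D1:**
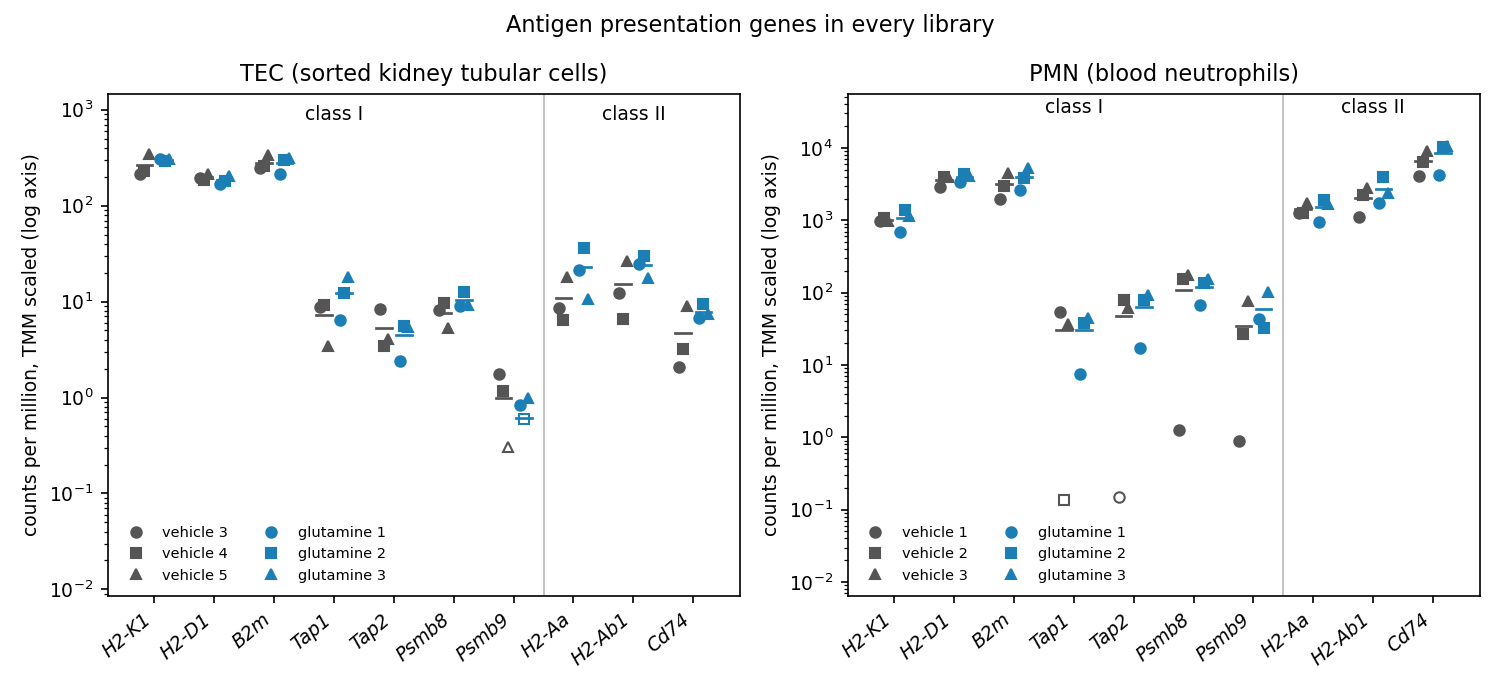
Level of each member in every library in TMM-scaled CPM on a log axis, with vehicle in grey, glutamine in blue and a bar at each group mean. An open symbol marks a library with no count, drawn at the level of 3 counts. In TECs the heavy chains and B2m stand well above the rest, and in PMN the class II genes reach the level of class I.

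Psmb8 and Psmb9 encode catalytic subunits of the immunoproteasome, which interferon puts in place of the constitutive subunits encoded by Psmb5 and Psmb6. Psmb8 stood at 8.19, 9.58 and 5.30 CPM with vehicle and 9.01, 12.7 and 9.21 CPM with glutamine. The groups overlapped through vehicle 4, and the log2 fold change was 0.41 ± 0.37 (SE, edgeR adjusted p = 0.667). It was 0.20 without vehicle 5 and 0.24 without glutamine 2. Psmb9 had 18, 13 and 0 counts with vehicle and 7, 0 and 9 counts with glutamine. A count of 0 allows up to 0.306 CPM in vehicle 5 and 0.603 CPM in glutamine 2, which covers counting error only. Psmb9 did not pass the expression filter, and without that filter its log2 fold change was -0.65 (edgeR unadjusted p = 0.643, adjusted p = 0.852). DESeq2 gave -0.66 (unadjusted p = 0.679, no adjusted p), and fits without 1 library in which it passed the filter gave -1.18 to -0.10. The partner subunits were far higher. Psmb5 stood at 242, 239 and 261 CPM with vehicle and 165, 170 and 175 CPM with glutamine, and Psmb6 at 185, 175 and 186 CPM against 109, 144 and 123 CPM. Neither gene overlapped between the groups, under TMM, under library totals or under totals without predicted, Rik and sensory receptor genes, which all rescale the same counts. Of the 3 constitutive subunits 2 thus showed no overlap, against 18.8% of all tested genes. Psmb5 had a log2 fold change of -0.54 ± 0.18 (SE, unadjusted p = 0.0115, edgeR adjusted p = 0.262) and Psmb6 one of -0.53 ± 0.19 (SE, unadjusted p = 0.0181, edgeR adjusted p = 0.296), so that neither was called. Psmb7, the third constitutive subunit, was listed at 0.601 to 3.55 CPM and Psmb10, its induced counterpart, at 13.7 to 27.1 CPM with overlapping groups. These genes lie outside the 10 members.

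The immunoproteasome share, defined as the level per kilobase of Psmb8 and Psmb9 over that of Psmb8, Psmb9, Psmb5 and Psmb6, put these values together. It was 1.25%, 1.37% and 0.618% in the vehicle libraries and 1.88%, 2.06% and 1.80% in the glutamine libraries. All glutamine libraries were above all vehicle libraries, with a mean of 1.91% ± 0.134 against 1.08% ± 0.405 (SD, n = 3). The difference was 0.833 percentage points and 0.602 without vehicle 5. In the group means Psmb5 and Psmb6 were lower with glutamine and Psmb8 was higher, whereas Psmb9 was lower, at 0.609 CPM against 0.980 CPM with vehicle. Taken singly, Psmb5 and Psmb6 did not overlap between the groups, and Psmb8 and Psmb9 did. No p-value is given, because the quantity was built with the values known. The 4 other genes of the immunoproteasome and the PA28 activator gave 3 higher and 1 lower log2 fold change, none called, with Pomp and Psme1 the most abundant, at 193 to 278 CPM and 29.1 to 60.9 CPM.

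**Figure D2:**
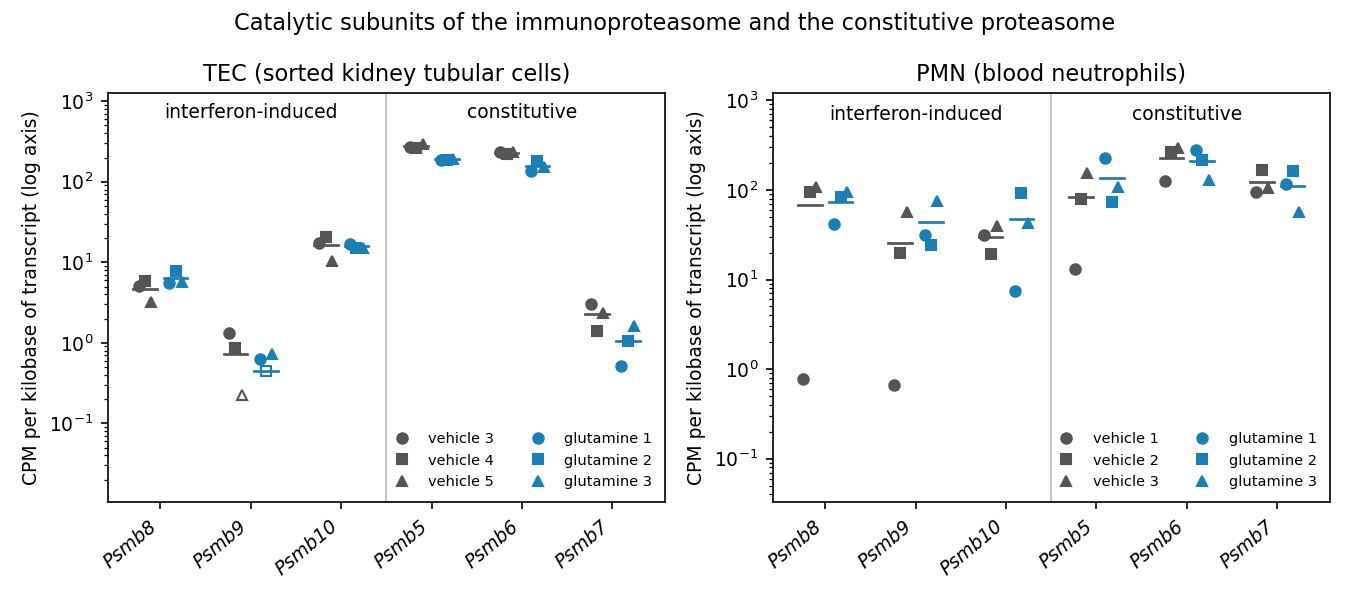
Level per kilobase of transcript on a log axis for the interferon-induced subunits (left of the line) and the constitutive subunits (right) in every library, with bars at group means and open symbols for libraries with no count. In TECs the glutamine libraries of Psmb5 and Psmb6 lie below all vehicle libraries, and in PMN the induced subunits reach the range of the constitutive ones in most libraries.

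H2-Aa and H2-Ab1 encode the alpha and beta chain of I-A, the one class II molecule that C57BL/6 mice display, and Cd74, on chromosome 18, encodes the invariant chain that guards its groove. H2-Aa stood at 8.58, 6.36 and 17.8 CPM with vehicle and at 21.3, 36.2 and 10.6 CPM with glutamine. Vehicle 5 was above glutamine 3, and the other vehicle libraries were below all glutamine libraries. Group means were 10.9 ± 6.08 for vehicle and 22.7 ± 12.8 CPM for glutamine (SD, n = 3). The log2 fold change was 1.04 ± 0.48 (SE, 95% interval -0.02 to 2.11, edgeR unadjusted p = 0.0535, adjusted p = 0.397). H2-Ab1 stood at 12.4, 6.63 and 26.3 CPM with vehicle and at 24.7, 29.5 and 17.7 CPM with glutamine. Again vehicle 5 lay among the glutamine libraries, and the log2 fold change was 0.66 ± 0.44 (SE, 95% interval -0.31 to 1.63, edgeR adjusted p = 0.550). Cd74 stood at 2.07, 3.22 and 8.97 CPM with vehicle and at 6.73, 9.44 and 7.35 CPM with glutamine. Its log2 fold change was 0.72 ± 0.54 (SE, 95% interval -0.48 to 1.92, edgeR adjusted p = 0.608). In all 3 genes vehicle 5 was the highest vehicle library and vehicle 3 and 4 lay below every glutamine library.

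How far the class II genes stood apart depended on single libraries. Without vehicle 5 the log2 fold changes were 1.58 for H2-Aa, 1.32 for H2-Ab1 and 1.55 for Cd74, with unadjusted p-values of 0.00846, 0.00562 and 0.0105 in edgeR. The adjusted p-values were then 0.148, 0.135 and 0.159, so that none was called in that fit either. In the same fit H2-K1 had a log2 fold change of 0.44 (unadjusted p = 0.0479 in edgeR without vehicle 5). An unadjusted p below 0.05 was also more frequent over all genes there, with 2749 of 15540 against 1878 of 14734 with all libraries. Other libraries moved the values down. The log2 fold change of H2-Aa was 0.54 without glutamine 2, that of H2-Ab1 was 0.30 without vehicle 4, and that of Cd74 was 0.35 without vehicle 3. For H2-K1 it was 0.058 without vehicle 3 and 0.10 without vehicle 4. No label sets vehicle 5 apart, and it is kept in all values unless said otherwise. The platelet and red cell markers stood apart in it, however, summing to 1623 CPM in vehicle 5 against 556 and 312 CPM in vehicle 3 and 4. With glutamine they summed to 638, 2606 and 356 CPM, so that glutamine 2, vehicle 5 and glutamine 1 were the high libraries of both this list and class II. The part of these markers in the class II levels was not tested. In levels over the 6 libraries, the mean log2 CPM of the 3 class II genes correlated with H2-K1 at a Pearson r of 0.83, against 0.35 for B2m and -0.07 for H2-D1, a description over 6 libraries that share their scaling.

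**Figure D3:**
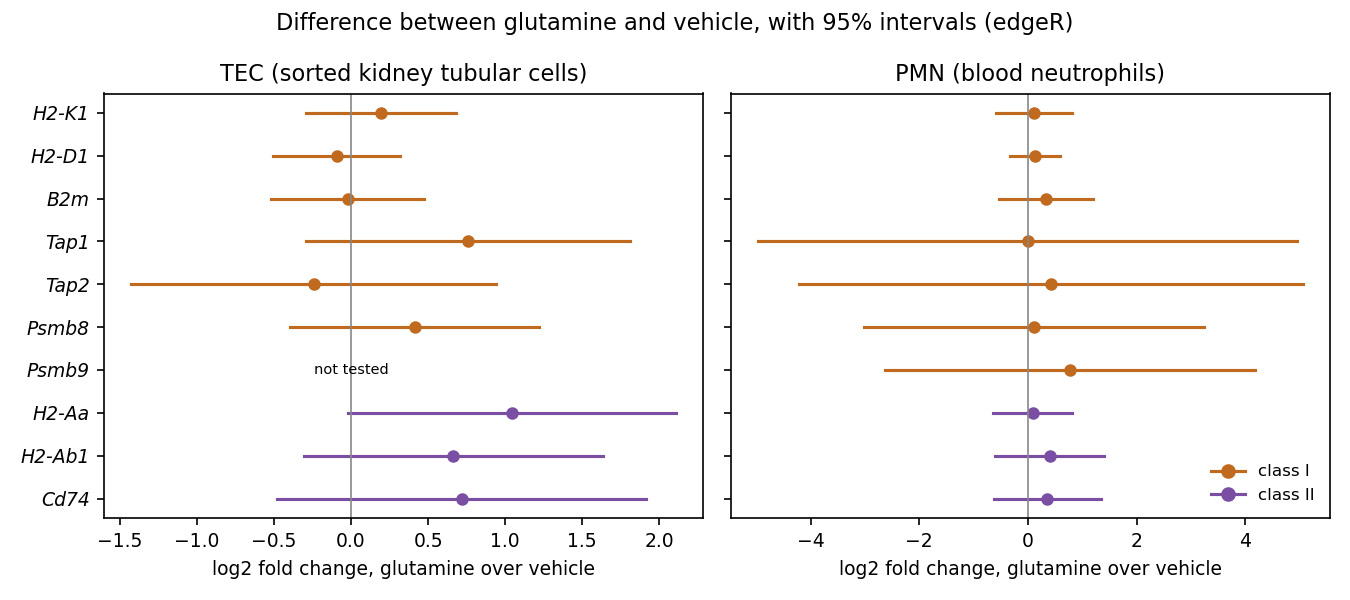
Log2 fold change of glutamine over vehicle for each member with its 95% interval from edgeR, class I in orange and class II in purple, with separate horizontal scales for TECs and PMN. Every interval crosses 0, and the intervals of Tap1, Tap2, Psmb8 and Psmb9 in PMN are several times wider than those of the other members.

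Summed over the class, class I stood at 680, 694 and 914 CPM in the vehicle TEC libraries and at 705, 806 and 860 CPM in the glutamine libraries. The sums overlapped, and the log2 ratio of the group means was 0.05 under TMM and -0.11 under library totals, both less than the spread between libraries (SD 0.20 and 0.14 on the log2 scale). Under TMM it was 0.203 without vehicle 5, 0.128 without glutamine 1 and 0.037 without glutamine 2. Its sign turned without vehicle 3, vehicle 4 or glutamine 3, to -0.024, -0.012 and -0.013. Class II stood at 23.1, 16.2 and 53.1 CPM with vehicle and at 52.7, 75.1 and 35.6 CPM with glutamine, a log2 ratio of means of 0.82 against a spread of 0.73. Over the 6 libraries class I ranged 1.34-fold from lowest to highest and class II 4.63-fold. The ratio of class II to class I was 0.0339, 0.0234 and 0.0581 with vehicle and 0.0748, 0.0932 and 0.0414 with glutamine. Vehicle 3 and 4 were below all glutamine libraries and vehicle 5 was above glutamine 3, so that the groups overlapped here too. The mean ratio was 0.0385 ± 0.0178 with vehicle and 0.0698 ± 0.0262 with glutamine (SD, n = 3). For the class II means the log2 ratio was 1.47 without vehicle 5, and 0.52 without vehicle 4 or without glutamine 2. The summed macrophage and dendritic cell markers were highest in glutamine 2 and 1, at 136 and 102 CPM, the libraries high in class II, but vehicle 5, as high in class II as glutamine 1, had 72.8 CPM of them, below the 83.6 CPM of vehicle 3. Of that list 9 genes were tested, 7 with a log2 fold change above 0 and 2 below, with a median of 0.69 against 0.01 over all genes. Of the 9, 2 had an unadjusted p below 0.05 in edgeR, against 12.7% of all tested genes, and 0 were called. Groups did not overlap in 2, against 18.8% of all tested genes. Lyz2, at most 2.56 CPM with vehicle and 3.95 to 12.5 CPM with glutamine, and Xcr1, at most 16.6 CPM with vehicle and 21.3 to 25.2 CPM with glutamine, did not overlap. The 10 B cell markers summed to 12.8 to 23.8 CPM with vehicle and 17.5 to 29.7 CPM with glutamine, most of it Ms4a1. The 8 proximal tubule markers summed to 3799 to 5804 CPM with vehicle and 3940 to 6183 CPM with glutamine. Of these 8 genes, 7 had a log2 fold change above 0, against 50.6% of all tested genes, with a median of 0.55. In edgeR 3 had an unadjusted p below 0.05, against 12.7% of all tested genes, and 0 were called. The groups did not overlap in 2, against 18.8% of all tested genes. The neutrophil markers summed to 102 to 243 CPM with vehicle and 119 to 254 CPM with glutamine, and the T and NK cell markers to at most 3.62 CPM in any library. The part of these markers in the class II difference was not tested. The B cell markers Cd79a and Pax5 were at most 0.493 CPM in any TEC library.

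**Figure D4:**
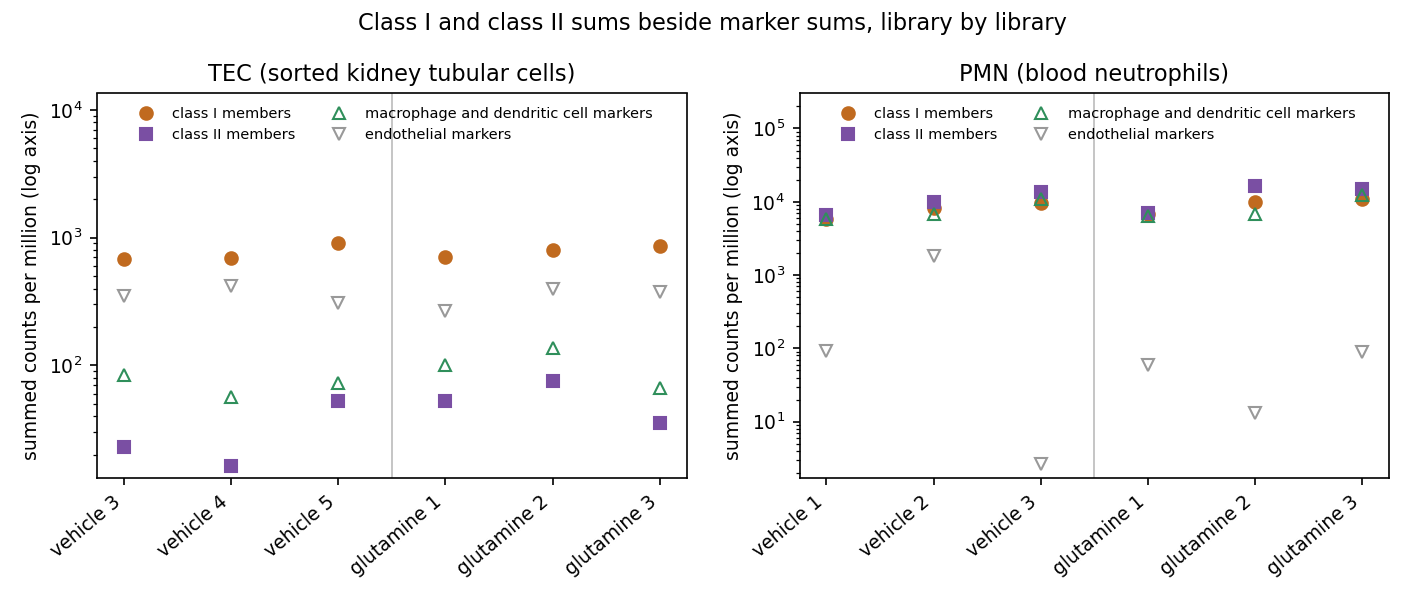
Summed CPM on a log axis in every library for the class I members, the class II members, 16 macrophage and dendritic cell markers and 6 endothelial markers. In TECs class II lies more than 10-fold below class I throughout and is lowest in vehicle 3 and 4, and in PMN the class sums lie at similar heights and vehicle 2 has the highest endothelial sum.

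Other class II genes of the TEC libraries were read from a list of 8, of which H2-Ea was not listed by that symbol and 4 were tested. All 4 had a log2 fold change above 0, against 50.6% of all tested genes, with a median of 0.27. The groups did not overlap in 1 of the 4, against 18.8% of all tested genes. H2-Eb1, the beta chain of I-E, stood at 9.17, 3.31 and 7.23 CPM with vehicle and 10.6, 19.3 and 14.5 CPM with glutamine, without overlap under any of the 3 scalings. Its log2 fold change was 1.16 ± 0.42 (SE, edgeR unadjusted p = 0.0189, adjusted p = 0.301), which did not pass. The peptide editors H2-DMb2 and H2-DMb1 were the most abundant of the list, at 22.4 to 41.3 CPM and 5.28 to 31.4 CPM, and vehicle 5 was the highest library of H2-DMb1. In the class II processing list, 1 of 4 tested genes was higher and 3 were lower. The groups did not overlap in 2 of these 4, against 18.8% of all tested genes. Ctsl, a lysosomal protease, was the most abundant, at 829 to 1251 CPM with vehicle and 663 to 1003 CPM with glutamine. Ctss, the protease that cuts the invariant chain in antigen-presenting cells, was 5.33, 3.40 and 3.06 CPM with vehicle and 6.61, 10.8 and 5.48 CPM with glutamine (log2 fold change 0.95, edgeR adjusted p = 0.420). Its groups overlapped under library totals, but not under TMM or under totals without predicted, Rik and sensory receptor genes. Lgmn, a protease abundant in proximal tubule, was 331, 333 and 339 CPM with vehicle and 230, 220 and 315 CPM with glutamine (log2 fold change -0.39, edgeR adjusted p = 0.443), also without overlap.

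The other class I heavy chains gave 6 higher and 3 lower log2 fold changes among 9 tested of 13, with a median of 0.52 and no call. Among the 9 tested genes of this list the groups did not overlap in 2, against 18.8% of all tested genes. That list, taken by symbol, includes H2-K2, annotated as a transcribed unprocessed pseudogene, and the untested H2-T10, annotated as a polymorphic pseudogene. H2-Q4 and H2-T23 were the most abundant, at 24.8 to 80.2 CPM and 16.0 to 48.5 CPM, with overlapping groups. H2-Q6 and the pseudogene H2-K2 did not overlap, at no more than 1.63 and 0.986 CPM with vehicle and at least 2.30 and 1.92 CPM with glutamine, levels of few reads. The regulators of the MHC promoters were scarce. Nlrc5, the class I activator, stood at 0.204 to 2.52 CPM, and Ciita, the class II activator, at 0 to 0.815 CPM with 2 libraries at 0. Irf1, which binds interferon response elements, ranged from 6.81 to 20.2 CPM with its highest value in vehicle 5. Of 14 regulators tested, 7 log2 fold changes were above and 7 below 0, their median was -0.04 and 0 were called. Ifngr1, a chain of the interferon-gamma receptor, led the list at 18.1 to 49.9 CPM. The subunits Rfxank and Nfyc were the most abundant among those that bind the X and Y boxes, at 23.3 to 44.6 CPM and 26.2 to 35.8 CPM.

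Interferon targets outside antigen presentation were read from a list of 16. All 16 were tested in TECs and had a log2 fold change above 0, against 50.6% of all tested genes, with a median of 0.98 against 0.01. None was called by edgeR. An unadjusted p below 0.05 was found for 7 of the 16, against 12.7% of all tested genes, and 4 did not overlap, against 18.8%. Rsad2, the antiviral protein viperin, stood at 22.9, 22.2 and 59.8 CPM with vehicle and 39.2, 277 and 264 CPM with glutamine, so that glutamine 1 lay below vehicle 5 (log2 fold change 2.47 ± 0.63, SE, edgeR adjusted p = 0.212). Ifit3, another interferon-induced antiviral gene, stood at 18.6, 10.4 and 25.2 CPM against 17.5, 67.7 and 74.9 CPM (log2 fold change 1.56, edgeR adjusted p = 0.245), and was the one gene of this list that DESeq2 called (adjusted p = 0.0387). Cxcl10, Gbp3 and Irf7 did not overlap, with log2 fold changes of 1.47, 1.27 and 1.04. Glutamine 2 and 3 were the high libraries of Rsad2 and Ifit3, whereas glutamine 1 and 2 were those of H2-Aa.

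In PMN the class II genes were among the most abundant of the members. Per kilobase, Cd74 stood at 5324 ± 2102 CPM (SD over 6 libraries), B2m at 4117 ± 1450, H2-Ab1 at 1951 ± 804, H2-D1 at 1802 ± 269, H2-Aa at 1304 ± 324 and H2-K1 at 646 ± 146 CPM. Cd74 was above B2m in 5 of 6 libraries and H2-Ab1 above H2-D1 in 2 of 6, and neither pair differed beyond its spread. Psmb8 followed at 70.4 ± 40.9, Psmb9 at 34.7 ± 27.0, Tap2 at 16.0 ± 10.9 and Tap1 at 10.2 ± 7.28 CPM per kilobase. Neighbours among these scarce genes lay within their summed SDs, whereas H2-K1 was above Psmb8 in all 6 libraries and beyond their summed SDs. The 2 tables were scaled separately, so levels in TECs and PMN are set side by side without a test.

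All 10 members were tested in PMN among 10130 genes, and 0 were called by edgeR, as among all tested genes (0%). Every member had the same edgeR adjusted p of 0.99996, and so did each gene of the pathway lists that was tested in PMN. None had an unadjusted p below 0.05, against 3.42% of all genes, and the groups overlapped in all 10, against 10.5% of genes without overlap. DESeq2 called 0 of the members and 2.73% of the 11123 genes to which it gave an adjusted p. The log2 fold change was above 0 in 9 of the 10, against 50.0% of all genes, with a median of 0.23 against 0.00 over all genes. The smallest change that could be seen differed widely between members, since the standard errors of the log2 fold changes were 0.19 to 0.42 for the chains and Cd74 and 1.32 to 2.09 for Tap1, Tap2, Psmb8 and Psmb9.

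H2-K1 stood at 965, 1080 and 974 CPM in PMN vehicle 1, 2 and 3 and at 693, 1410 and 1150 CPM in glutamine 1, 2 and 3, so that the vehicle libraries lay inside the range of the glutamine libraries. Its log2 fold change was 0.11 ± 0.29 (SE, 95% interval -0.59 to 0.80). H2-D1 stood at 2880, 4009 and 3967 CPM with vehicle and 3349, 4430 and 4095 CPM with glutamine, with a log2 fold change of 0.13 ± 0.19 (SE, 95% interval -0.33 to 0.59). B2m stood at 1949, 2990 and 4447 CPM with vehicle and 2658, 3861 and 5338 CPM with glutamine. Its log2 fold change was 0.34 ± 0.36 (SE). The libraries numbered 1 were the lowest of their group for B2m and H2-D1, a number that does not pair them.

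The class II genes followed the same libraries. Cd74 stood at 4154, 6429 and 9177 CPM with vehicle and 4256, 10278 and 10743 CPM with glutamine. The spread within each group exceeded the difference between the means, 6587 ± 2515 and 8426 ± 3619 CPM (SD, n = 3), with a log2 fold change of 0.36 ± 0.41 (SE). H2-Aa stood at 1270, 1272 and 1742 CPM with vehicle and 946, 1904 and 1694 CPM with glutamine, with a log2 fold change of 0.09 ± 0.31 (SE). H2-Ab1 stood at 1121, 2228 and 2777 CPM with vehicle and 1725, 3978 and 2358 CPM with glutamine, with a log2 fold change of 0.40 ± 0.42 (SE). Glutamine 2 was the highest library of both chains.

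The scarce class I genes of PMN were present in some libraries and nearly missing in others. Tap1 stood at 54.2, 0 and 36.5 CPM with vehicle and 7.58, 37.5 and 45.1 CPM with glutamine, and Tap2 at 0, 79.6 and 62.1 CPM and 17.4, 79.9 and 91.9 CPM. Vehicle 2 thus had no Tap1 count but the second highest vehicle total of the class, and vehicle 1 had no Tap2 count. By counting error alone, a count of 0 allows up to 0.137 CPM in vehicle 2 and 0.150 CPM in vehicle 1, and the spread between libraries is far wider than that. Psmb8 stood at 1.25, 153 and 177 CPM with vehicle and 68.4, 135 and 153 CPM with glutamine, and Psmb9 at 0.902, 26.6 and 76.3 CPM and 42.6, 32.6 and 102 CPM. Vehicle 1 was the low library of both. Swings of this size from library to library give intervals of the log2 fold change from -4.97 to 4.95 for Tap1 and from -3.02 to 3.23 for Psmb8.

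In sum, class I stood at 5851, 8337 and 9739 CPM in the PMN vehicle libraries and at 6836, 9986 and 10975 CPM in the glutamine libraries, and class II at 6545, 9929 and 13696 CPM and at 6927, 16160 and 14796 CPM. Libraries low in the one class were low in the other. The ratio of class II to class I was 1.12, 1.19 and 1.41 with vehicle and 1.01, 1.62 and 1.35 with glutamine, a mean of 1.24 ± 0.150 against 1.33 ± 0.303 (SD, n = 3), and the groups overlapped. The log2 ratio of these means, 0.10, was -0.069 without glutamine 2 and 0.031 without vehicle 1, and 0.26 without glutamine 1 and 0.20 without vehicle 3. In the TEC libraries the same ratio lay between 0.0234 and 0.0932. The summed macrophage and dendritic cell markers were 5911, 6823 and 10912 CPM in PMN vehicle 1, 2 and 3 and 6313, 6875 and 12469 CPM in glutamine 1, 2 and 3. Glutamine 2, highest in class II, had a marker sum with 3 libraries below it and 2 above. The 10 neutrophil markers summed to 48398, 30146 and 52192 CPM in vehicle 1, 2 and 3. In glutamine 1, 2 and 3 they summed to 71313, 38818 and 22035 CPM. The part of either marker list in the class II level was not tested. The 10 B cell markers summed to at most 2.69 CPM with vehicle and to 33.4, 44.2 and 48.3 CPM with glutamine, without overlap, through Cd79b and Ighm. Ighm was not tested, and Cd79b had no count with vehicle and 18.6 to 31.3 CPM with glutamine (adjusted p = 0.713 in edgeR and 3.88e-10 in DESeq2). In contrast, Cd79a, Pax5 and Igkc were at most 0.456 CPM in any PMN library. Their part in the levels of the members was not tested. The immunoproteasome share was 1.02%, 24.8% and 26.8% with vehicle and 12.6%, 26.9% and 41.8% with glutamine. The groups overlapped, and the difference of 9.54 percentage points was 1.27 without vehicle 1 and 2.20 without glutamine 3, and 16.8 without glutamine 1.

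Over all genes tested in PMN, 10.5% had groups without overlap, and some genes of this paragraph are named because theirs did not overlap. Of the wider pathway in PMN, H2-Eb1 followed the members at 831, 1185 and 1655 CPM with vehicle and 919, 2328 and 1798 CPM with glutamine, with overlap. H2-Q10, a class I heavy chain known from liver and serum, stood at 335, 352 and 243 CPM with vehicle and 508, 525 and 487 CPM with glutamine, without overlap, with a log2 fold change of 0.71 ± 0.27 (SE, edgeR unadjusted p = 0.0368). H2-T23 was the other abundant gene of that list, at 164 to 253 CPM. H2-T24 did not overlap, at no more than 10.4 CPM with vehicle and at least 22.2 CPM with glutamine. In that list 8 of 9 tested genes had a log2 fold change above 0, against 50.0% of all tested genes, and none was called. Tapbpl, a relative of tapasin, was at most 0.866 CPM with vehicle and reached 53.2 and 81.0 CPM in glutamine 2 and 3. Glutamine 1, with 19 counts, lay just above the highest vehicle library, also with 19 counts, so that the groups did not overlap in CPM. Its DESeq2 adjusted p was 0.00194, the one call DESeq2 made in the pathway lists in PMN. Erap1 stood at 87.1, 62.0 and 61.8 CPM with vehicle and 0.527, 0 and 54.7 CPM with glutamine, lower in glutamine without overlap. Irf1 stood at 181, 212 and 148 CPM with vehicle and 321, 233 and 339 CPM with glutamine, without overlap, with a log2 fold change of 0.72 ± 0.35 (SE, edgeR unadjusted p = 0.0765). Nlrc5 stood at 28.2, 2.78 and 4.47 CPM with vehicle and 62.2, 62.9 and 31.0 CPM with glutamine, also without overlap (log2 fold change 2.14 ± 1.32, SE). Ciita had no count in 5 of the 6 PMN libraries and 0.803 CPM in glutamine 3, in which the class II members summed to 14796 CPM. Of the 3 constitutive subunits, Psmb5 was 11.8, 72.0 and 141 CPM with vehicle and 206, 65.8 and 96.4 CPM with glutamine, and Psmb6 and Psmb7 overlapped as well. Class II processing was led by Ctss, at 2192 to 4002 CPM with vehicle and 2292 to 4049 CPM with glutamine, and by Lgmn, at 956 to 1343 and 1238 to 2206 CPM. The editor H2-DMb2 was scarce in PMN, at no more than 1.41 CPM with vehicle and at least 2.05 CPM with glutamine. The PA28 chain Psme2 stood at 119 to 168 CPM with vehicle and 67.4 to 109 CPM with glutamine, without overlap. Of 12 regulators and 8 interferon targets tested in PMN, 7 and 5 had a log2 fold change above 0, with medians of 0.10 and 0.22 and no call by either tool. Groups did not overlap in 3 of the 12 regulators, 2 of 9 other heavy chains and 2 of 6 loading genes. The same held for 1 of 4 genes of the immunoproteasome and PA28 list and 1 of 4 other class II genes. It held for 0 interferon targets, processing genes and constitutive subunits.

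The genes whose levels ran most like class II were looked up over the 6 libraries of each cell type, among genes outside the lists with at least 10 CPM on average. In TECs these were Rbbp6, Plaur, Spint1, Ankrd11 and Atp5o, with Pearson r from 0.988 to 0.996 against the mean log2 CPM of H2-Aa, H2-Ab1 and Cd74. In PMN they were Atp9b, Mapk3, Rab24, Trim8 and Nr1d2, with r from 0.976 to 0.996. No gene was in both sets. With 8352 and 7073 genes searched over 6 libraries each, 250 and 80 genes had r above 0.9, and these correlations are a description only. Within the members, r with the class II mean was 0.92 for H2-D1, 0.87 for B2m and 0.77 for H2-K1 in PMN, and 0.25 for Tap1.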

How the data were processed

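RNA of sorted TECs and of PMN was reverse transcribed from poly-A tails and read as single ends of 50 bases, per the labels. Per the labels, the authors trimmed reads with Trim Galore 0.6.4 and quantified them with Salmon 1.0.0 against mm10. The authors' deposited values are Salmon's estimated counts, one row to a gene symbol and without scaling. A spreadsheet program had altered the deposited PMN table, with surplus points in 3.2% of its entries and dates in 0.39%, and these entries were decoded, the last point being read as the decimal point. It gives 2 columns per library, whose mean was used as 1 replicate (log2 values of the same library correlated at 0.995 to 0.996, those of other libraries at 0.771 to 0.824). All per-sample columns were used.

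Before testing, values were rounded. For PMN a count table that needed no decoding had been planned. Each cell type was fitted alone with edgeR 4.0.16 in R 4.3.3 (TMM, default expression filter, quasi-likelihood test, Benjamini-Hochberg adjustment over all genes tested, threshold 0.05). The standard error is the log2 fold change over the square root of F. The test was checked on simulated counts, but no outcome of that check is given here and no value rests on it. With 3 libraries against 3 an exact permutation test cannot go below a two-sided p of 0.1. Class sums, their ratio and the immunoproteasome share carry no p-value. Alternatives were DESeq2 1.42.0, limma 3.58.1 (voom), other scalings and filters, single PMN columns and leaving out each replicate. Lengths are those of the longest coding transcript in GENCODE M21.

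The members and all gene lists were chosen with earlier results of these data known. All 10 members are given in every library. Of each other pathway list the 2 most abundant genes are named, with up to 4 further genes that had an unadjusted p below 0.05 or groups without overlap, and Psmb5, Psmb6, Psmb7, Psmb10, H2-Eb1, Nlrc5, Ciita and Irf1 in any case. Marker lists are given by their sums where they stand beside a result. Groups overlap or not under TMM unless another scaling is named. Some genes of these lists are not reported here by name. The 5 genes most like class II were taken by Pearson r of log2(CPM + 1).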

Additional observations from a re-analysis of the deposited data

How the results depend on the processing

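No member passed the adjusted threshold under any of the alternatives run in either cell type. No paired analysis was possible because the labels give 1 shared number in TECs and none in PMN.

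The count of all genes past the threshold did depend on the method. In TECs it was 0 with edgeR, 245 with DESeq2 and 425 without an expression filter, and 0 to 36 when replicates were left out in turn, with 4 without vehicle 5 and 36 without glutamine 2. In PMN it was 0 with edgeR and 304 with DESeq2. The group difference in the TEC immunoproteasome share was 0.833 percentage points in the main setting. It was 1.55 with counts in place of counts per kilobase and 1.98 with Psmb10 and Psmb7 added. The vehicle mean also rose, from 1.08% to 1.99% and 4.13%, so these differences are not on the same base. Psmb7 was scarce in TECs, at 0.601 to 3.55 CPM, and the added pair was mostly Psmb10.

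Of the 9 members tested in TECs, 7 kept the direction of their log2 fold change in all 13 alternatives, and in PMN 3 of 10 (B2m, Psmb9 and Cd74) did so in all 15, where their values were 0.052 to 0.67, 0.11 to 2.10 and 0.079 to 0.66. In TECs, B2m turned to 0.029 without predicted, Rik and sensory receptor genes and ran from -0.13 to 0.14 with each replicate left out in turn. Left out in the same way, Tap2 ran from -0.48 to 0.24. In PMN, limma-voom gave 3.33 for Tap2 and 1.68 for Psmb8, against 0.42 and 0.11 in the main edgeR fit. Tap1 turned to 2.79 with limma-voom and 0.028 with upper-quartile factors. Its range with a replicate left out was -0.60 to 0.68, that of Tap2 -0.20 to 1.01, of Psmb8 -0.50 to 0.62, of H2-K1 -0.18 to 0.33, of H2-D1 -0.038 to 0.21, of H2-Aa -0.17 to 0.31 and of H2-Ab1 -0.051 to 0.67. The turned values came without vehicle 1 or glutamine 2 for H2-D1, without either of these or glutamine 3 for Psmb8, without any 1 of these or vehicle 2 for H2-Aa, and without glutamine 2 for H2-K1 and H2-Ab1. Their cause was not tested. Depth limits genes of few reads, such as Psmb9 in TECs with at most 18 counts, and no library here was uninjured.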
